A study of Mus musculus with 9 samples.

Results

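The genes described here encode the class I and class II molecules of the mouse major histocompatibility complex (MHC) and the proteins that load and regulate them. They were taken by name from a matrix of expression values: every gene whose symbol begins with H2-, the mouse MHC prefix, and 15 named partners. The rule gave 41 genes, of which 39 were among the 17753 genes of the matrix. Tapbp and Cd74 were not analysed here. RNA-seq libraries came from brown fat, white fat and soleus, a slow-twitch leg muscle, with 3 libraries of each tissue. All 9 came from male C57BL/6J mice, wild type and 3 months old, with no treatment named, and the tissue is the difference between the groups. The labels state 3 mice but do not tie libraries to mice, so p-values measure the spread between these libraries. The depot of the white fat is not given in the sources used here.

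Class I molecules sit on nearly every nucleated cell and show peptides from the cell's own proteins to CD8+ T cells. Their heavy chain pairs with B2m (beta-2-microglobulin), and peptides reach it through the proteasome, the transporter Tap1/Tap2, the trimming peptidase Erap1 and the chaperones Calr, Canx and Pdia3. Class II molecules pair an alpha with a beta chain, are made mainly by macrophages, dendritic cells and B cells, and show peptides from endosomes to CD4+ T cells. Ciita is the master regulator of class II genes, and Nlrc5 its class I counterpart. Fat holds resident macrophages, whose number and state are known to differ between depots.

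Levels were given as FPKM, fragment numbers corrected for the length of each transcript and for the size of each library, which allows levels to be set side by side between genes. Differences below are log2 fold changes of FPKM + 1 from a limma fit across 9913 genes in all 9 libraries, called at a Benjamini-Hochberg adjusted p under 0.05; this scale understates the change of genes near 1 FPKM. FPKM sums ran from 328214 to 343015 in brown fat, from 213936 to 234886 in white fat and from 308950 to 352502 in soleus, and relative depth differed 3.58-fold between the shallowest and the deepest library. Rescaling each library to a common total moved the median difference of all genes between brown and white fat to -0.50, against 0.03 without it, and between white fat and soleus to 0.93, against 0.35. Median-of-ratios scaling moved the median of brown fat against soleus to -0.01, against 0.29, and that of white fat against soleus to -0.02. The libraries carried the markers of their labels. Slow-fibre markers summed to 2.54 to 6.07 FPKM in brown fat, 0.330 to 0.903 in white fat and 21292 to 25419.7 in soleus, and adipocyte markers to 2028 to 2338, 4803 to 5297 and 27.4 to 148 FPKM in the same order.

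Antigen presentation genes were highest in white fat and lowest in soleus for most of the members that could be tested. Of the 39 genes, 21 reached 1 FPKM in at least 3 libraries and were tested; mean levels ran white fat over brown fat over soleus in 15 of these. In brown fat against white fat, 3 members were higher and 15 lower; of all tested genes 72.8% passed, 38.0% higher and 34.8% lower. The median difference of the members was -0.56 log2 units, against 0.03 for all genes. Against soleus, 16 members were higher and 1 lower in brown fat, where 78.5% of all genes passed, 52.9% higher and 25.6% lower. The median was 1.27 for the members and 0.29 for all genes. In white fat against soleus, 20 members were higher and 0 lower by limma, also at an unadjusted p under 0.05, where 84.2% of all genes passed, 54.5% higher and 29.7% lower. The median was 1.99 for the members and 0.35 for all genes, and the remaining member, H2-K2, differed by 0.11; on a common total it was called at 0.62 and 21 members were higher. Calls of any kind were thus common among all genes as well. The 3 comparisons share libraries and are not independent of each other.

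**Figure D1:**
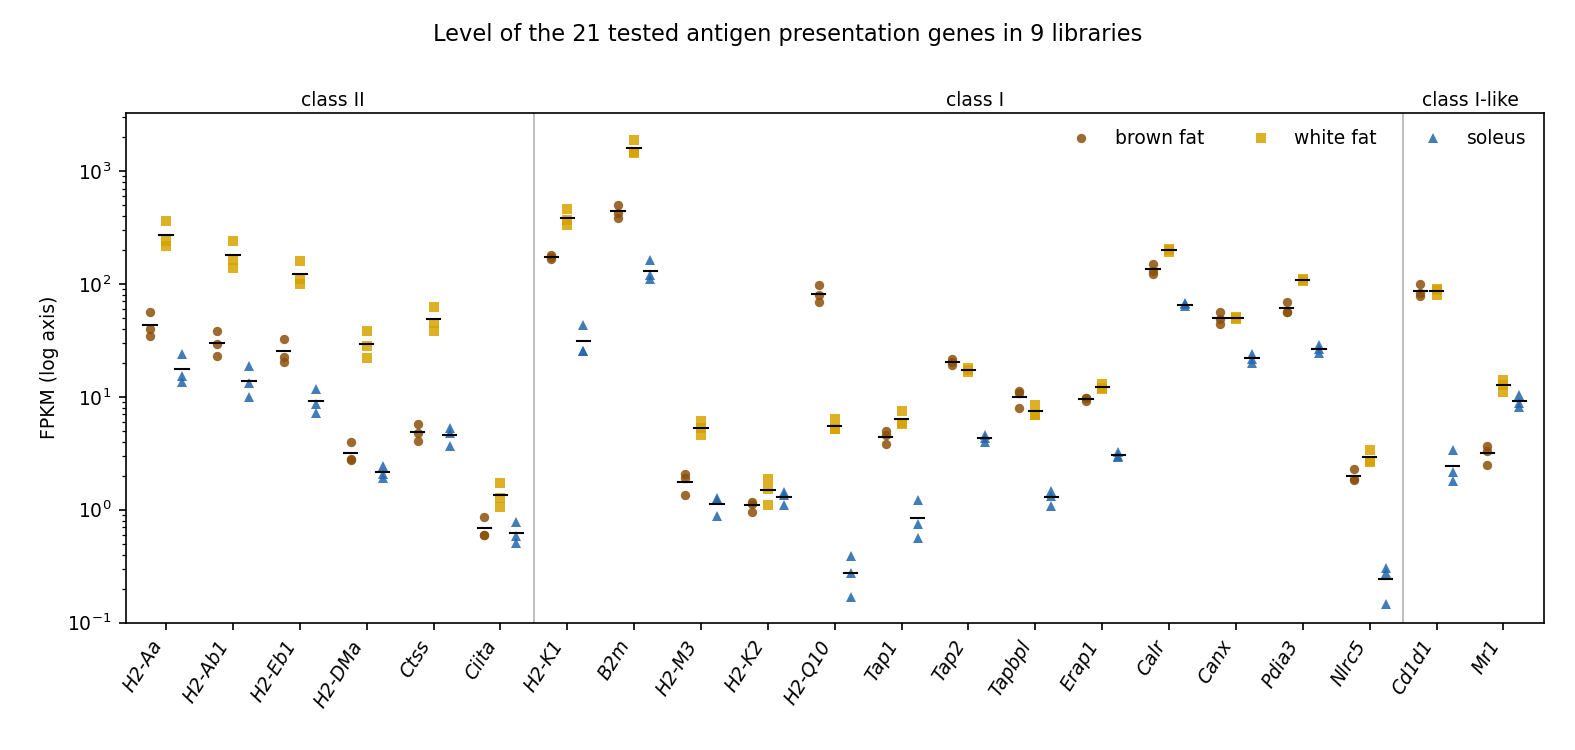
FPKM of the 21 tested antigen presentation genes on a log axis, by gene; each point is 1 library of brown fat (circles), white fat (squares) or soleus (triangles), and bars are tissue means. White fat is highest for the class II genes, H2-K1 and B2m, whereas H2-Q10 is highest in brown fat at 68.6 to 98.3 FPKM and Mr1 is lowest there.

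The most abundant class II chains were H2-Aa (the I-A alpha chain), H2-Ab1 (the I-A beta chain) and H2-Eb1 (the I-E beta chain). No I-E alpha chain was among the 7 class II chains of the matrix. The H2-Eb1 values therefore describe a transcript and not an I-E molecule. Class II promoters are known for a shared arrangement of short motifs, and those of H2-Aa and H2-Eb1 are shown because both genes are central to the class II values and carry it. In mammals the X1 box of class II promoters is bound by the RFX complex, the X2 box by CREB family factors and the Y box by NF-Y. The windows run from 130 bases before to 20 bases after the start annotated by RefSeq on GRCm38.p6, at chr17:34287804-34287953 (minus strand) for H2-Aa and chr17:34305737-34305886 (plus strand) for H2-Eb1. Each is written 5′ to 3′ along its gene. Capitals mark the X1 core GCAAC, the X2 core TGACG and the Y core ATTGG, where an X core stands before the Y core at the class II spacing.
H2-Aa: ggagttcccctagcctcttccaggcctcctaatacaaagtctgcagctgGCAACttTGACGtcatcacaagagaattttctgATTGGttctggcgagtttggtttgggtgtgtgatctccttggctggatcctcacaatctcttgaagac
H2-Eb1: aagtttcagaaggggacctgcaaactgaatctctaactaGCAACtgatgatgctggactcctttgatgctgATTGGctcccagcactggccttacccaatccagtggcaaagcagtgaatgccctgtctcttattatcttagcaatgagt
From the first base of GCAAC to the first base of ATTGG the distance was 33 bases in H2-Aa and 32 bases in H2-Eb1. Searched on both strands of 32851 promoters of 300 bases, GCAAC alone occurred in 35.2%, TGACG in 20.8% and ATTGG in 37.4%. GCAAC followed by ATTGG at 28 to 36 bases on the same strand occurred in 141 promoters, or 0.429%. Of the 6 class II chains with a promoter in the table, 5 held that pair, namely H2-Aa, H2-Eb1, H2-Eb2, H2-Oa and H2-Ob; it was not found in those of H2-DMa. Of 17 promoters of class I chains and B2m, 0 held it. The motifs and spacings were chosen after these promoters had been read, so the counts are a description, and a match is not a site.

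Transcripts of the class II chains were several-fold more abundant in white fat than in either other tissue. H2-Aa stood at 34.2, 56.3 and 39.5 FPKM in brown fat, 239, 217 and 358 FPKM in white fat and 23.7, 15.4 and 13.4 FPKM in soleus. No tissue's libraries overlapped another's, and white fat replicate 3 was the highest of all. Brown fat held 6.26-fold less H2-Aa than white fat by the ratio of means (log2 difference -2.61, SE 0.25, limma adjusted p = 3.3e-06) and 2.48-fold more than soleus (1.27, SE 0.25, limma adjusted p = 7.1e-04). White fat held 15.5-fold more than soleus (3.88, SE 0.25, limma adjusted p = 7.0e-08). In bulk tissue, fewer cells of a type and less RNA per cell cannot be told apart.

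H2-Ab1, the partner of H2-Aa, followed the same order. It stood at 22.8, 38.5 and 29.4 FPKM in brown fat, 163, 139 and 242 FPKM in white fat and 18.6, 13.3 and 9.92 FPKM in soleus, with no overlap between tissues. Its log2 difference was -2.54 (SE 0.26, limma adjusted p = 5.6e-06) in brown against white fat, 1.07 (SE 0.26, limma adjusted p = 0.0027) in brown fat against soleus and 3.61 (SE 0.26, limma adjusted p = 1.7e-07) in white fat against soleus. The level of H2-Aa was 1.16 to 1.56 times that of H2-Ab1 over all 9 libraries.

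H2-Eb1 stood at 20.5, 32.7 and 22.4 FPKM in brown fat, 111, 98.9 and 159 FPKM in white fat and 11.6, 8.63 and 7.24 FPKM in soleus, again without overlap. Brown fat was 2.24 log2 units below white fat, written as -2.24 (SE 0.22, limma adjusted p = 4.3e-06), and 1.36 above soleus (SE 0.22, limma adjusted p = 1.7e-04). White fat was 3.60 above soleus (SE 0.22, limma adjusted p = 4.8e-08). The H2-Aa level was 1.67 to 1.77 times that of H2-Eb1 in brown fat, 2.16 to 2.25 times in white fat and 1.78 to 2.04 times in soleus. Brown fat replicate 2, white fat replicate 3 and soleus replicate 1 were the highest of their tissues for each of these 3 chains.

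H2-DMa encodes a chain of the DM complex, which swaps the invariant chain fragment in the class II groove for peptide. Its libraries held 2.76, 3.96 and 2.83 FPKM in brown fat, 28.0, 21.9 and 38.3 FPKM in white fat and 2.45, 1.90 and 2.08 FPKM in soleus. White fat stood far above both other tissues, which were close to each other without overlapping. Brown fat was 9.24-fold below white fat by the ratio of means (log2 difference -2.84, SE 0.18, limma adjusted p = 1.3e-07), and white fat was 3.24 log2 units above soleus (SE 0.18, limma adjusted p = 2.1e-08). The difference of 0.40 between brown fat and soleus did not pass (SE 0.18, limma adjusted p = 0.059). It passed without white fat replicate 2 or replicate 3, at 0.40 in each case, and with a pseudocount of 0.1, at 0.54; over all alternatives its adjusted p ran from 0.014 to 0.6.

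H2-Oa and H2-Ob, chains of the DO complex that restrains DM, and H2-Eb2 stayed under 1 FPKM everywhere and were not tested. H2-Ob reached 0.155 to 0.258 FPKM in brown fat, 0.402 to 0.682 FPKM in white fat and 0.0867 to 0.122 FPKM in soleus, and H2-Oa 0.0348 to 0.0660, 0.229 to 0.528 and 0.0365 to 0.112 FPKM in the same order. H2-Eb2 was at most 0.0377 FPKM and was listed at 0 in all soleus libraries.

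Ctss encodes cathepsin S, the endosomal protease that trims the invariant chain before class II loading. It stood at 4.09, 5.68 and 4.73 FPKM in brown fat, 44.7, 38.5 and 62.6 FPKM in white fat and 5.33, 4.80 and 3.63 FPKM in soleus. Brown fat and soleus overlapped, and white fat lay far above both. Ctss fell 10.1-fold in brown against white fat (log2 difference -3.07, SE 0.18, limma adjusted p = 6.9e-08), below any other member in that comparison. In brown fat and soleus the levels were close, and the difference of 0.07 did not pass (SE 0.18, limma adjusted p = 0.75) and its sign changed to -0.28 with median-of-ratios scaling.

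Ciita was low everywhere, at 0.595, 0.597 and 0.852 FPKM in brown fat, 1.05, 1.27 and 1.73 FPKM in white fat and 0.776, 0.507 and 0.579 FPKM in soleus. It was lower in brown than in white fat by 0.48 log2 units, as -0.48 (SE 0.11, limma adjusted p = 0.0032), and 0.53 higher in white fat than in soleus (SE 0.11, limma adjusted p = 0.0012). Brown fat and soleus overlapped, with a difference of 0.05 (SE 0.11, limma adjusted p = 0.68) that became -0.11 with median-of-ratios scaling. The value is the sum of 2 transcript rows whose patterns differed. The first row held 0.439 to 0.624 FPKM in brown fat, 1.00 to 1.66 FPKM in white fat and 0.267 to 0.412 FPKM in soleus. The second held 0.126 to 0.228 FPKM in brown fat, 0.0346 to 0.0773 FPKM in white fat and 0.167 to 0.367 FPKM in soleus, so it was lowest in white fat.

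Macrophage markers moved with the class II genes. The 8 markers analysed, among them Adgre1, Csf1r, C1qa and Mrc1, summed to 49.0, 57.5 and 48.8 FPKM in brown fat, 514, 467 and 586 FPKM in white fat and 46.8, 33.2 and 36.7 FPKM in soleus, and none was at 0 as a tissue mean. All 8 fell in brown against white fat (median -3.24), and all 8 were higher in white fat than in soleus (median 3.53). Set against soleus, 6 were higher in brown fat (median 0.33), of which 5 no longer passed with median-of-ratios scaling, and C1qa and C1qb then had negative signs. Within each tissue, the library highest for H2-Aa was also the highest for the summed macrophage markers. The same libraries were the highest for the summed T and NK cell markers as well. The order of the remaining libraries differed between H2-Aa and the macrophage markers in brown fat and in soleus, and was the same in white fat. H2-Aa stood at 2.80 to 4.16 times the level of C1qa, a complement gene of macrophages, in brown fat, 1.78 to 2.42 times in white fat and 1.57 to 1.98 times in soleus, a ratio chosen after its values were seen. The 5 dendritic cell markers summed to 4.60 to 6.41 FPKM in brown fat, 8.35 to 10.3 FPKM in white fat and 1.50 to 1.89 FPKM in soleus; Zbtb46 was higher in brown than in white fat (0.83, SE 0.13, limma adjusted p = 2.2e-04) and Cd209a lower (-2.20, SE 0.13, limma adjusted p = 7.4e-08). Zbtb46 alone averaged 4.82 FPKM in brown fat, 2.27 FPKM in white fat and 1.11 FPKM in soleus. Endothelial markers summed to 87.2 to 88.4 FPKM in brown fat, 42.2 to 66.0 FPKM in white fat and 43.2 to 48.1 FPKM in soleus. In brown against white fat 4 of 6 were higher, among them Kdr (1.53, SE 0.13, limma adjusted p = 1.8e-06), and 1 was lower, where 38.0% and 34.8% of all genes were. On a common total Pecam1 turned to -0.20, and Cdh5 (0.24) and Emcn (0.29) no longer passed. The 5 B cell markers summed to at most 1.34, 2.29 and 1.02 FPKM in brown fat, white fat and soleus, none passing the filter, and the 7 T and NK cell markers to at most 2.66, 4.19 and 0.326 FPKM. Fibroblast and matrix markers summed to 237 to 264 FPKM in brown fat, 1412 to 1479 FPKM in white fat and 366 to 483 FPKM in soleus, and mesothelial markers to 1.20 to 1.42, 67.6 to 101 and 0.245 to 2.11 FPKM. The part of these cell types in the class II differences was not tested.

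Class I chains were represented by 19 genes, grouped by symbol, of which 4 were tested: H2-K1, H2-M3, H2-K2 and H2-Q10. H2-D1, the other classical chain of this strain, was not analysed here. The promoters of H2-K1, H2-M3, B2m and H2-Q10 are shown. The first 3 genes share a motif pair, and H2-Q10 is set beside them for its level in brown fat. They are the RefSeq windows of GRCm38.p6 at chr17:34000328-34000477 (minus strand), chr17:37270104-37270253 (plus strand), chr2:122147557-122147706 (plus strand) and chr17:35469959-35470108 (plus strand). Capitals mark TGACG followed by ATTGG on the same strand at 22 to 30 bases, start to start.
H2-K1: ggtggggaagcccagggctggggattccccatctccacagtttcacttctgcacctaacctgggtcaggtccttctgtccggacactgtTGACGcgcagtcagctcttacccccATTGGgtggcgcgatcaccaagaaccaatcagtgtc
H2-M3: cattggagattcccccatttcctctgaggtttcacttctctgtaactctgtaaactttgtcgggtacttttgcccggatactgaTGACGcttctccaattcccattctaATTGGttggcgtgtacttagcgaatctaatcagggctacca
B2m: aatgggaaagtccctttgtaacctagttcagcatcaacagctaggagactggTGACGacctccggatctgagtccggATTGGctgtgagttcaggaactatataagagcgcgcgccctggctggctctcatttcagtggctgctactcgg
H2-Q10: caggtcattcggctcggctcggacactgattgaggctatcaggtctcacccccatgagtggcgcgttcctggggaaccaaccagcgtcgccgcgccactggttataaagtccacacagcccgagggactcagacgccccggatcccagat
The distance was 25 bases in H2-K1, H2-M3 and B2m. The pair occurred in 126 of all promoters, or 0.384%, in 3 of the 17 promoters of class I chains and B2m, and also in H2-Aa at 26 bases. It was not found in the H2-Q10 window, which says only that these letters are not there at this spacing. H2-Eb1, H2-DMa, Ctss, Tap1, Erap1, Mr1, Calr and Pdia3, all lower in brown than in white fat, did not hold it either. Its absence thus did not set H2-Q10 apart, and a bearing of the pair on the tissue order was not tested.

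H2-K1, the classical class I heavy chain, was abundant in both fats. It stood at 173, 179 and 167 FPKM in brown fat, 365, 331 and 461 FPKM in white fat and 43.0, 25.5 and 25.5 FPKM in soleus. The tissues did not overlap, and soleus replicate 1 stood above the other 2 soleus libraries. Brown fat held 2.23-fold less than white fat by the ratio of means (log2 difference -1.14, SE 0.19, limma adjusted p = 2.6e-04) and 5.51-fold more than soleus (2.47, SE 0.19, limma adjusted p = 4.1e-07). White fat was 3.61 log2 units above soleus (SE 0.19, limma adjusted p = 1.5e-08). Stretches of 50 bases shared with transcripts of other genes made up 8.79% of the H2-K1 transcript, most of them shared with H2-D1, and 0% at 100 bases; how the authors' counting divided such reads is not given in the sources used here.

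B2m, the light chain of class I molecules and also of CD1d and MR1, had the highest level of all members. It stood at 387, 505 and 422 FPKM in brown fat, 1436, 1485 and 1867 FPKM in white fat and 163, 119 and 110.4 FPKM in soleus, without overlap. Brown fat was 3.64-fold below white fat (log2 difference -1.86, SE 0.17, limma adjusted p = 2.3e-06) and 3.35-fold above soleus (1.75, SE 0.17, limma adjusted p = 2.7e-06), and white fat 12.2-fold above soleus (3.61, SE 0.17, limma adjusted p = 6.1e-09). The B2m level was 2.24 to 2.82 times that of H2-K1 in brown fat, 3.93 to 4.49 times in white fat and 3.79 to 4.66 times in soleus, so brown fat lay below both other tissues without overlap.

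H2-M3 encodes a non-classical chain that presents N-formylated peptides. Its levels were 1.34, 2.05 and 1.89 FPKM in brown fat, 5.26, 4.59 and 6.13 FPKM in white fat and 1.27, 1.21 and 0.880 FPKM in soleus. White fat stood apart, with brown fat lower by 1.20 log2 units, as -1.20 (SE 0.12, limma adjusted p = 7.1e-06), and soleus lower still, at 1.58 for white fat against soleus (SE 0.12, limma adjusted p = 4.2e-07). The difference of 0.38 between brown fat and soleus passed (SE 0.12, limma adjusted p = 0.017) but was lost without brown fat replicate 2 (0.30), brown fat replicate 3 (0.34) or soleus replicate 3 (0.29), and with median-of-ratios (0.14) or upper quartile scaling (0.16). Its adjusted p ran from 0.0034 to 0.34 over the alternatives.

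H2-K2, grouped with the class I chains by its symbol, had no call in any comparison when all 9 libraries were fitted without rescaling. No protein-coding transcript of that name was found in GENCODE M21, so sequence that it shares with other genes was not counted. H2-K2 stood at 1.18, 0.959 and 1.12 FPKM in brown fat, 1.11, 1.52 and 1.86 FPKM in white fat and 1.35, 1.43 and 1.11 FPKM in soleus, and every pair of tissues overlapped. Its log2 differences were -0.25 (SE 0.11, limma adjusted p = 0.06), -0.14 (SE 0.11, limma adjusted p = 0.27) and 0.11 (SE 0.11, limma adjusted p = 0.34) for brown against white fat, brown fat against soleus and white fat against soleus; these turned on the scaling. On a common total it was called at -0.84 in brown against white fat and at 0.62 in white fat against soleus, and white fat against soleus gave -0.17 with median-of-ratios scaling. Brown against white fat was also called at -0.29 with upper quartile scaling and at -0.36 without white fat replicate 1, and brown fat against soleus at -0.37 with median-of-ratios and -0.34 with upper quartile scaling. Over the alternatives its adjusted p ran from 0.0012 to 0.23 between the fats, from 0.011 to 0.52 between brown fat and soleus and from 0.0062 to 0.92 between white fat and soleus. The other 15 class I chains were not tested. Of these, H2-M9 reached 0.214 to 0.526 FPKM in brown fat, 0.0781 to 0.217 FPKM in white fat and at most 0.0327 FPKM in soleus, and the other 14 were at most 0.0629 FPKM in any library. H2-M1 and the 6 H2-M10 genes were listed at 0 in all 9 libraries, and H2-M10 genes are known mainly from the vomeronasal organ.

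H2-Q10 ran against the other tested class I chains and had the highest brown-to-white ratio of the tested members. It encodes a class I heavy chain that lacks the usual membrane anchor, is secreted, and is known in the mouse mainly as a product of the liver. It stood at 98.3, 68.6 and 79.0 FPKM in brown fat, 5.13, 5.22 and 6.31 FPKM in white fat and 0.387, 0.275 and 0.169 FPKM in soleus. The lowest brown fat library lay above the highest white fat library, and every white fat library above every soleus library. Brown fat held 14.8-fold more than white fat by the ratio of means (log2 difference 3.65, SE 0.13, limma adjusted p = 2.3e-09) and 296-fold more than soleus (6.01, SE 0.13, limma adjusted p = 1.8e-11). White fat held more than soleus by 2.36 log2 units (SE 0.13, limma adjusted p = 2.0e-08).

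The level of H2-Q10 was 0.383 to 0.570 times that of H2-K1 in brown fat, 0.0137 to 0.0158 times in white fat and 0.00664 to 0.0108 times in soleus. Among white fat libraries Ucp1, the uncoupling protein of brown fat, stood at 7.81, 1.45 and 35.7 FPKM, and H2-Q10 at 5.13, 5.22 and 6.31 FPKM. Replicate 3 was the highest for both, and the order of the other libraries differed. The part of brown adipocytes in the white fat values was not tested. H2-Q1 shares sequence with H2-Q10 and was at most 0.0629 FPKM. Stretches of 50 bases shared with other genes made up 8.03% of the H2-Q10 transcript and stretches of 100 bases 2.06%, and reads from the Qa-region genes that were not analysed here could fall in them.

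**Figure D2:**
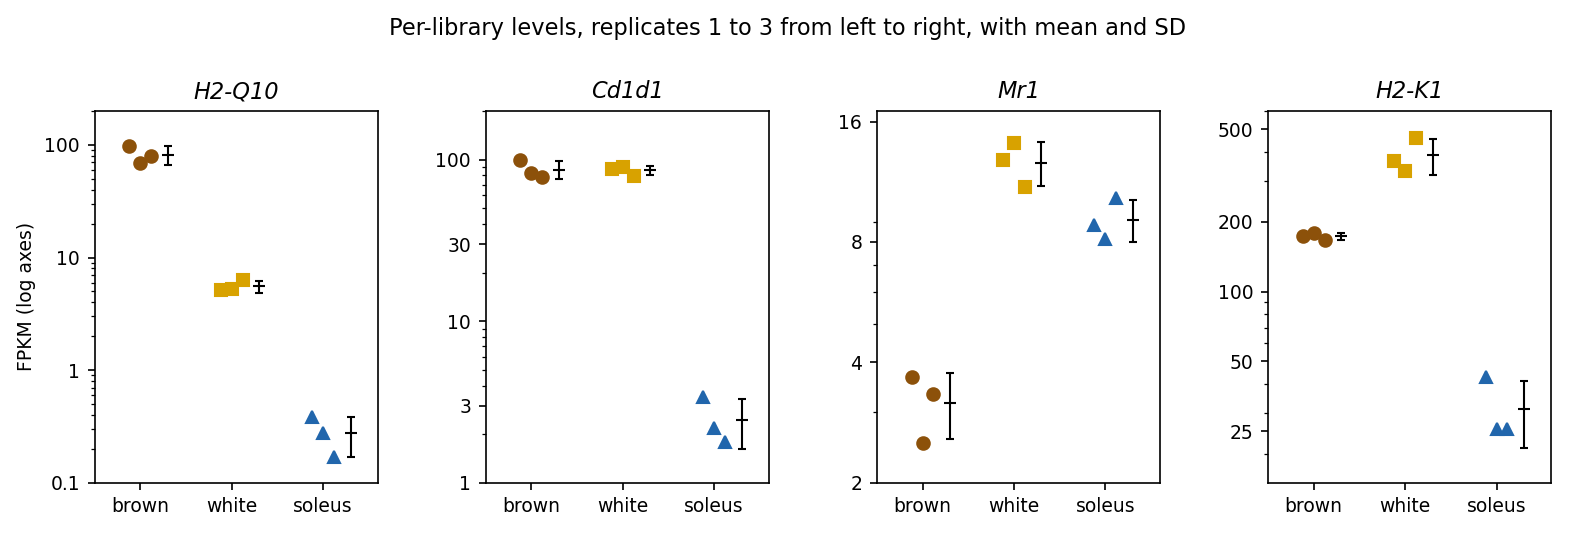
FPKM per library on log axes for H2-Q10, Cd1d1 and Mr1, whose order of tissues differed from most members, beside H2-K1; points are replicates, bars the mean and SD. H2-Q10 reaches 68.6 to 98.3 FPKM in brown fat, Cd1d1 overlaps between the fats, and Mr1 is lowest in brown fat at 2.51 to 3.67 FPKM.

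The genes that supply, load or regulate class I differed between brown fat and soleus in a single direction. All but B2m (-1.86 between the fats, 1.75 in brown fat against soleus) differed less between the fats. Of the 9 analysed, counting B2m and Nlrc5, 9 were higher in brown fat than in soleus (median 1.39) and 9 higher in white fat than in soleus (median 1.79). Of all genes, 52.9% and 54.5% were higher in these comparisons, with medians of 0.29 and 0.35. In brown against white fat 2 were higher, 6 lower and 1 passed in neither direction (median -0.38).

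Tap1, the first subunit of the peptide transporter, stood at 3.79, 4.93 and 4.58 FPKM in brown fat, 5.87, 5.69 and 7.42 FPKM in white fat and 1.21, 0.739 and 0.556 FPKM in soleus. Tap2, its partner, stood at 20.4, 21.4 and 19.3 FPKM in brown fat, 17.1, 16.7 and 18.0 FPKM in white fat and 4.30, 3.95 and 4.59 FPKM in soleus. The subunits thus had opposite orders in the fats, although neither overlapped between tissues. Tap1 was lower in brown than in white fat (-0.43, SE 0.14, limma adjusted p = 0.018) and Tap2 higher (0.22, SE 0.07, limma adjusted p = 0.017). Both calls turned on single libraries, and the direction of Tap2 also on the scaling. Tap1 did not pass without brown fat replicate 1 (-0.34) or white fat replicate 3 (-0.33), nor with a pseudocount of 0.1 (-0.50), with adjusted p from 9.0e-04 to 0.074 over the alternatives. Tap2 did not pass without replicate 2 of brown fat (0.19) or of white fat (0.20), or with upper quartile scaling (0.14). When libraries were rescaled to a common total, it was called in the opposite direction at -0.35 (limma adjusted p = 0.0053). Over the alternatives its adjusted p ran from 0.0028 to 0.07. The level of Tap2 was 4.20 to 5.39 times that of Tap1 in brown fat and 2.43 to 2.94 times in white fat, a ratio that library scaling does not touch, and 3.55 to 8.25 times in soleus. Against soleus, brown fat was higher by 1.58 for Tap1 (SE 0.14, limma adjusted p = 1.4e-06) and 2.02 for Tap2 (SE 0.07, limma adjusted p = 9.1e-10), and white fat by 2.00 (SE 0.14, limma adjusted p = 1.5e-07) and 1.79 (SE 0.07, limma adjusted p = 2.2e-09).

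Tapbpl, a tapasin-related peptide editor, stood at 7.95, 10.8 and 11.2 FPKM in brown fat, 8.49, 6.83 and 6.95 FPKM in white fat and 1.46, 1.33 and 1.08 FPKM in soleus. The fats overlapped through brown fat replicate 1. Tapbpl was higher in brown than in white fat by 0.38 (SE 0.13, limma adjusted p = 0.021). The call was lost without brown fat replicate 2 (0.32) or 3 (0.29) or white fat replicate 2 (0.33) or 3 (0.34). It was also lost with upper quartile scaling (0.30), and the sign turned to -0.16 on a common total. Over the alternatives its adjusted p ran from 0.0016 to 0.33. Against soleus, Tapbpl was higher in brown fat by 2.25 (SE 0.13, limma adjusted p = 3.3e-08) and in white fat by 1.88 (SE 0.13, limma adjusted p = 1.2e-07).

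Erap1, which trims peptides in the endoplasmic reticulum, stood at 9.85, 9.66 and 9.21 FPKM in brown fat, 11.7, 12.0 and 12.9 FPKM in white fat and 3.01, 2.90 and 3.21 FPKM in soleus. The tissues were tight and separate. It was lower in brown than in white fat (-0.32, SE 0.07, limma adjusted p = 0.0015), and higher than in soleus by 1.39 in brown fat (SE 0.07, limma adjusted p = 9.5e-09) and 1.71 in white fat (SE 0.07, limma adjusted p = 1.8e-09).

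The chaperones that fold class I chains also serve most other secreted proteins. Calr (calreticulin) stood at 150.4, 131 and 122 FPKM in brown fat, 201, 191 and 203 FPKM in white fat and 67.5, 63.1 and 65.8 FPKM in soleus. Pdia3 (ERp57) stood at 68.6, 56.5 and 56.8 FPKM in brown fat, 110.2, 107 and 109 FPKM in white fat and 29.0, 26.3 and 24.6 FPKM in soleus. Neither overlapped between tissues, and brown fat was below white fat for Calr (-0.56, SE 0.09, limma adjusted p = 2.1e-04) and Pdia3 (-0.84, SE 0.09, limma adjusted p = 1.3e-05). Canx (calnexin), the membrane-bound relative of Calr, stood at 56.2, 48.5 and 44.5 FPKM in brown fat, 51.2, 48.5 and 49.7 FPKM in white fat and 20.1, 21.5 and 24.0 FPKM in soleus. Its fat libraries overlapped, with a difference of -0.01 (SE 0.10, limma adjusted p = 0.95), although on a common total it was called at -0.59 and with median-of-ratios scaling its sign was positive at 0.06. In brown fat against soleus the chaperones were higher by 1.02 (Calr, SE 0.09, limma adjusted p = 1.3e-06), 1.15 (Pdia3, SE 0.09, limma adjusted p = 6.9e-07) and 1.15 (Canx, SE 0.10, limma adjusted p = 9.0e-07), and in white fat against soleus by 1.58, 1.99 and 1.15, with limma adjusted p = 2.8e-08, 6.8e-09 and 6.7e-07.

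Nlrc5, the regulator of class I genes, stood at 1.85, 2.31 and 1.83 FPKM in brown fat, 2.62, 3.40 and 2.71 FPKM in white fat and 0.301, 0.274 and 0.147 FPKM in soleus. It followed the order of H2-K1 and B2m without overlap. It was lower in brown than in white fat (-0.38, SE 0.10, limma adjusted p = 0.0052), and above soleus by 1.27 in brown fat (SE 0.10, limma adjusted p = 4.8e-07) and 1.65 in white fat (SE 0.10, limma adjusted p = 4.3e-08).

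**Figure D3:**
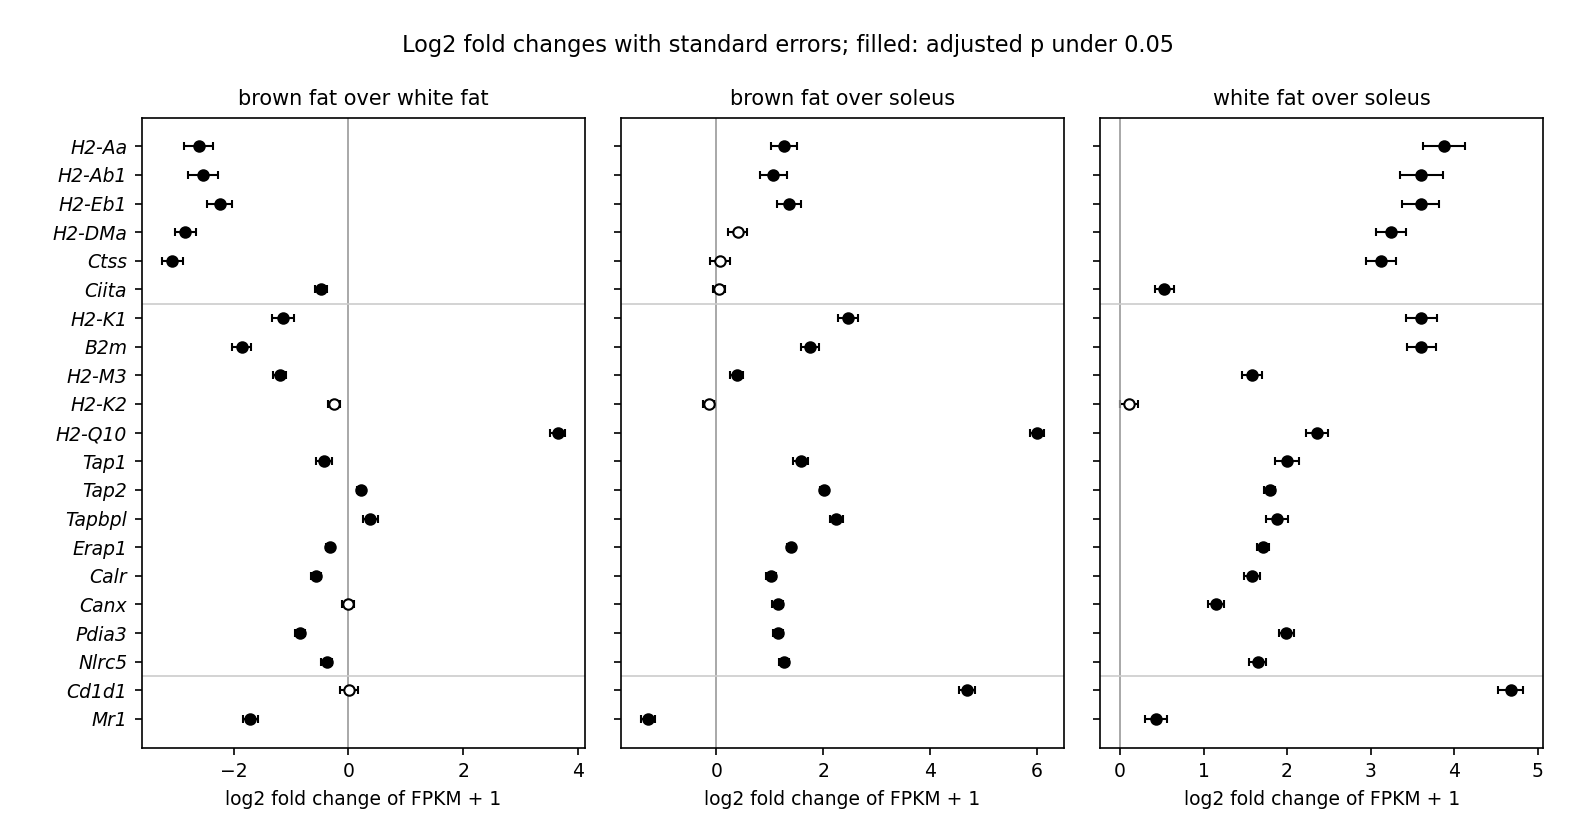
Log2 fold changes of FPKM + 1 with standard errors for the 21 tested genes in brown fat over white fat, brown fat over soleus and white fat over soleus; filled points had an adjusted p under 0.05, and lines separate class II, class I and class I-like genes. In brown over white fat the 4 class II chains and Ctss lie furthest left, down to -3.07 for Ctss. Ciita lies at -0.48 and H2-Q10 at 3.65.

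Cd1d1 and Mr1 encode class I-like molecules that show lipids and vitamin metabolites to NKT and MAIT cells, and their tissue orders differed from each other and from most members. Cd1d1 stood at 99.6, 83.0 and 77.8 FPKM in brown fat, 88.1, 90.5 and 79.4 FPKM in white fat and 3.39, 2.17 and 1.79 FPKM in soleus. The fats overlapped fully, whereas soleus was far below. Brown against white fat gave 0.01 (SE 0.15, limma adjusted p = 0.97), a difference that was called at -0.58 on a common total and also had a negative sign with upper quartile scaling (-0.08), without brown fat replicate 1 (-0.09) and without white fat replicate 3 (-0.05). Against soleus the fold was 35.4 in brown fat (4.69, SE 0.15, limma adjusted p = 4.4e-10) and 35.1 in white fat (4.68, SE 0.15, limma adjusted p = 4.8e-10).

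Adipocyte transcripts had the same order of libraries as Cd1d1 within soleus, as had other genes. Adipoq, the adiponectin gene, stood at 77.1, 31.8 and 12.4 FPKM in soleus replicates 1, 2 and 3, against 3.39, 2.17 and 1.79 FPKM for Cd1d1. The order was not particular to adipocyte genes. H2-Aa (23.7, 15.4 and 13.4 FPKM), B2m (163, 119 and 110.4 FPKM) and C1qa (12.0, 9.81 and 8.49 FPKM) shared it. The level of Cd1d1 was 0.154 to 0.189 times that of the adipocyte lipase gene Lipe in brown fat, 0.179 to 0.190 times in white fat and 0.157 to 0.209 times in soleus, a ratio chosen after its values were seen. The other adipocyte markers analysed did not keep such a ratio. By the ratio of means, white fat stood above soleus 35.1-fold for Cd1d1 and 34.2-fold for Lipe. The fold was 71.2 for Adipoq, 74.4 for Cidec and 81.7 for Adrb3. The part of adipocytes in the soleus values was not tested. Of the Cd1d1 transcript, 25.8% in stretches of 50 bases and 14.6% in stretches of 100 bases is shared with its neighbour Cd1d2. How the authors' counting divided such reads is not given in the sources used here, and the effect on the level was not tested.

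Mr1 was the member lower in brown fat than in soleus. It stood at 3.67, 2.51 and 3.34 FPKM in brown fat, 12.8, 14.1 and 11.0 FPKM in white fat and 8.80, 8.16 and 10.3 FPKM in soleus. Brown fat lay well below both other tissues, which were closer to each other and did not overlap. Brown fat was 3.98-fold below white fat (log2 difference -1.71, SE 0.13, limma adjusted p = 4.6e-07) and 2.86-fold below soleus (-1.28, SE 0.13, limma adjusted p = 3.5e-06). White fat was above soleus by 0.43 (SE 0.13, limma adjusted p = 0.0083), a call that was lost with upper quartile scaling (0.17) and with median-of-ratios scaling, where the sign was negative at -0.0028.

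Class II and class I were then set against each other within each library, as summed FPKM of the 7 class II and 19 class I chains, without a test. Class I chains summed to 274, 251 and 249 FPKM in brown fat, 377, 343 and 475 FPKM in white fat and 46.0, 28.5 and 27.7 FPKM in soleus. Class II chains summed to 80.5, 132 and 94.3 FPKM in brown fat, 542, 477 and 799 FPKM in white fat and 56.6, 39.4 and 32.7 FPKM in soleus. The class I sum exceeded the class II sum in each brown fat library, and the reverse held in each white fat and each soleus library. The class II sum counts alpha and beta chains, whereas the class I sum counts heavy chains without B2m. Which sum is larger therefore does not give which molecule is more abundant, and the shares serve to compare tissues. The class II share averaged 28.2% ± 5.89 over the brown fat libraries, 60.0% ± 2.41 over the white fat and 55.8% ± 2.00 over the soleus libraries (SD, n = 3 each). With H2-Q10 left out of the class I sum, an alternative chosen after the data had been seen, the share in brown fat was 36.4% ± 5.29, still below every library of the other tissues, whose shares were 54.4% to 63.0%.

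The ratio of the most abundant chain of each class had the same ranking of tissues as the class II share, although H2-Aa lay below H2-K1 in all 9 libraries. The level of H2-Aa was 0.198 to 0.314 times that of H2-K1 in brown fat, 0.654 to 0.778 times in white fat and 0.525 to 0.604 times in soleus, with no overlap between tissues. In brown against white fat the 4 tested class II chains lay between -2.84 and -2.24 log2 units (median -2.58), and the 4 tested class I chains between -1.20 and 3.65 (median -0.70). In white fat against soleus the class II chains lay between 3.24 and 3.88 and the class I chains between 0.11 and 3.61, with H2-K1 and H2-Ab1 at the same value of 3.61. The value of 0.11 was that of H2-K2, and H2-M3 was next at 1.58. Between brown fat and soleus the medians were 1.17 for class II and 1.42 for class I chains. The class I medians count H2-K2, which was placed in the class by its symbol. The class I sum holds neither H2-D1 nor the chains of the Qa and T regions that were not analysed here, so the shares describe the chains in the matrix.

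**Figure D4:**
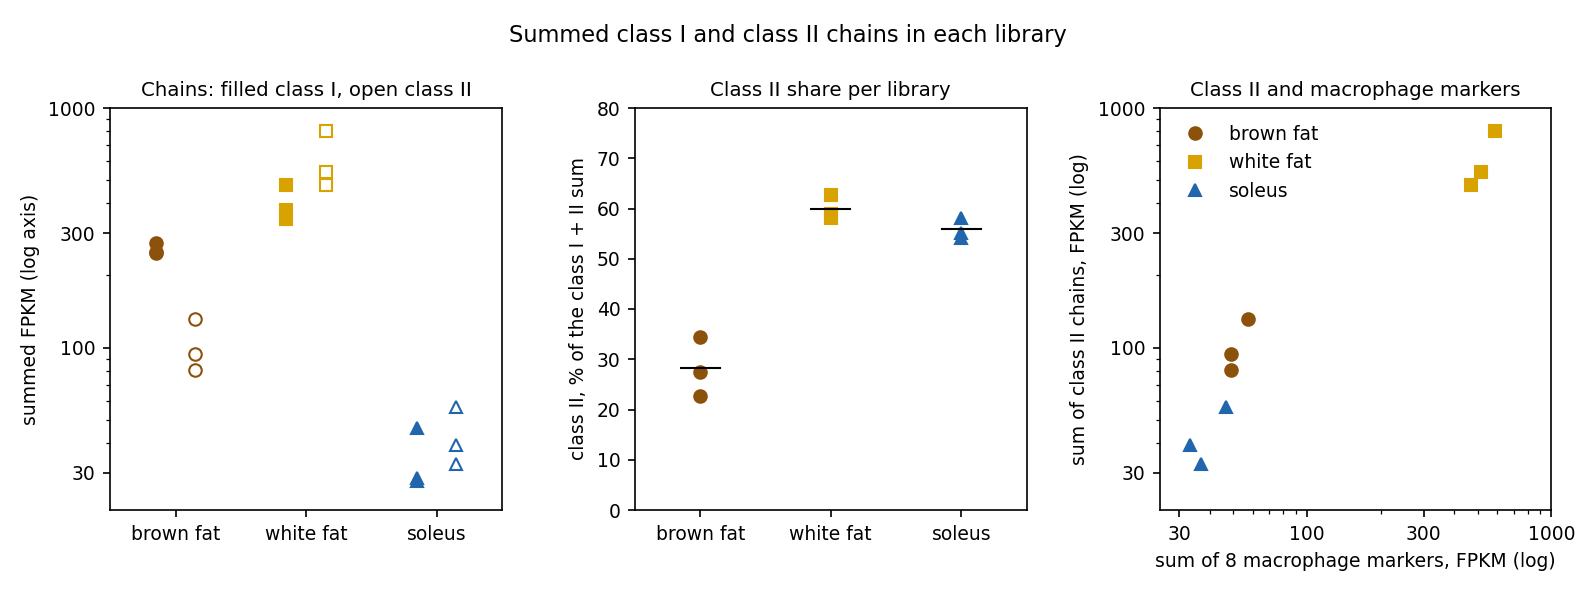
Left, summed FPKM of class I chains (filled) and class II chains (open) per library on a log axis; centre, class II as a percent of both sums, with tissue means as bars; right, class II sum against the sum of 8 macrophage markers, on log axes, for the 9 libraries. Class II shares sit at 22.7% to 34.4% in brown fat and at 54.2% or more elsewhere, and the white fat libraries stand apart on both axes of the right panel.

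Other genes of the pathway were followed as lists, with the genes of highest level or largest called change named from each. Of all tested genes, 38.0% were higher and 34.8% lower in brown against white fat, and 52.9% and 25.6% in brown fat against soleus. In white fat against soleus the shares were 54.5% and 29.7%. The counts of each list below are to be read beside these shares. The immunoproteasome subunits Psmb8, Psmb9 and Psmb10 and the activator subunits Psme1 and Psme2 favour peptides that fit class I. In brown against white fat 3 of 5 were lower and 2 passed in neither direction, with Psmb8 at 12.9 ± 2.96 FPKM in brown against 22.1 ± 3.17 FPKM in white fat (SD, n = 3 each; -0.74, SE 0.17, limma adjusted p = 0.0024). All 5 were higher in brown fat than in soleus, led by Psme2 (1.66, SE 0.18, limma adjusted p = 6.2e-06), and all 5 in white fat than in soleus, with the largest difference of 2.28 in both Psmb8 (SE 0.17, limma adjusted p = 2.6e-07) and Psmb9 (SE 0.18, limma adjusted p = 4.8e-07). Psme1, the most abundant, stood at 77.5 ± 3.51 FPKM in brown fat, 69.4 ± 6.81 FPKM in white fat and 44.4 ± 1.08 FPKM in soleus (SD, n = 3 each). With median-of-ratios scaling Psmb10 in brown fat against soleus and Psme1 in white fat against soleus no longer passed.

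Psmb6 and Psmb7, the constitutive subunits that Psmb9 and Psmb10 replace, had the opposite order. Psmb7 stood at 164 ± 6.99 FPKM in brown fat, 99.2 ± 9.52 FPKM in white fat and 193 ± 18.5 FPKM in soleus (SD, n = 3 each). Brown fat exceeded white fat for both, in Psmb7 by 0.73 (SE 0.10, limma adjusted p = 6.5e-05), although on a common total Psmb7 no longer passed and Psmb6 was reversed to -0.25. Both were lower in white fat than in soleus, Psmb7 at -0.96 (SE 0.10, limma adjusted p = 4.4e-06), and Psmb6 was lower in brown fat than in soleus (-0.52, SE 0.11, limma adjusted p = 0.001).

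Endosomal proteases, which prepare class II peptides, were divided. In brown against white fat 2 of 6 were higher and 3 lower. Ctsh fell to 5.43 ± 0.511 FPKM in brown fat, against 40.2 ± 5.94 FPKM in white fat (SD, n = 3 each; -2.68, SE 0.11, limma adjusted p = 4.7e-09). Ctsz reached 165 ± 35.1 FPKM in brown fat, against 90.1 ± 1.57 FPKM in white fat (0.85, SE 0.13, limma adjusted p = 1.2e-04), a call lost on a common total (0.26). Ctsd, the most abundant, held 673 ± 51.2 FPKM in brown fat, 478 ± 28.3 FPKM in white fat and 249 ± 9.48 FPKM in soleus, and on a common total its difference between the fats turned to -0.10. Against soleus, 3 were higher in brown fat, led by Ctsz (3.15, SE 0.13, limma adjusted p = 2.2e-09), and 2 lower, led by Ctsh (-0.77, SE 0.11, limma adjusted p = 5.2e-05). All 6 were higher in white fat than in soleus, led by Ctsb (2.46, SE 0.08, limma adjusted p = 3.0e-10), although Lgmn no longer passed with median-of-ratios scaling.

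The factors that bind the X1, X2 and Y boxes did not follow the order of the class II chains as a list. In brown against white fat 2 of 7 were higher and 2 lower, in brown fat against soleus 4 were higher and 2 lower, and in white fat against soleus 3 were higher and 3 lower. Rfxank, an RFX subunit, stood at 6.54 ± 0.0283 FPKM in brown fat, 2.23 ± 0.0370 FPKM in white fat and 2.32 ± 0.117 FPKM in soleus (SD, n = 3 each). It was above white fat by 1.22 (SE 0.06, limma adjusted p = 2.4e-08) and above soleus by 1.19 (SE 0.06, limma adjusted p = 1.6e-08) in brown fat. Nfyb was lower in brown fat than in white fat (-0.35, SE 0.09, limma adjusted p = 0.0034) and than in soleus (-0.58, SE 0.09, limma adjusted p = 8.9e-05). Nfyc, the most abundant, held 6.92 ± 0.309 FPKM in brown fat, 3.03 ± 0.174 FPKM in white fat and 7.52 ± 0.275 FPKM in soleus, and was lower in white fat than in soleus (-1.08, SE 0.07, limma adjusted p = 5.7e-08), where Nfya was higher (0.78, SE 0.08, limma adjusted p = 5.7e-06). On a common total Rfxap and Nfyb changed sign in white fat against soleus.

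Interferon gamma is known to induce both classes, and most genes of its signalling had lower levels in brown fat than in white. Of 8 tested, 6 were lower and 1 higher in brown against white fat, 5 higher and 1 lower in brown fat against soleus, and 6 higher and 1 lower in white fat against soleus. The median in brown fat against soleus was 0.26, near the 0.29 of all genes. The receptor chain Ifngr1 stood at 33.3 ± 1.64 FPKM in brown fat, 82.6 ± 5.76 FPKM in white fat and 11.1 ± 1.34 FPKM in soleus (SD, n = 3 each). Ifngr1 was lower in brown than in white fat (-1.29, SE 0.09, limma adjusted p = 3.8e-07) and higher in white fat than in soleus (2.79, SE 0.09, limma adjusted p = 5.4e-10). The other chain, Ifngr2, was lower than in soleus in brown fat (-1.70, SE 0.08, limma adjusted p = 1.1e-08) and in white fat (-1.21, SE 0.08, limma adjusted p = 1.4e-07). With median-of-ratios scaling Jak1 and Irf2 had negative signs in brown fat against soleus, and Jak2 no longer passed in brown against white fat (-0.14).

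Chaperones of the endoplasmic reticulum outside the class I pathway had lower levels in brown than in white fat for 4 of 5 genes and a higher level for 1. P4hb, a disulfide isomerase, stood at 34.1 ± 3.07 FPKM in brown fat, 140.4 ± 6.97 FPKM in white fat and 72.4 ± 2.72 FPKM in soleus (SD, n = 3 each), with a difference of -2.01 between the fats (SE 0.08, limma adjusted p = 6.5e-09) and -1.07 between brown fat and soleus (SE 0.08, limma adjusted p = 5.0e-07). Hyou1 was higher in brown than in white fat (0.46, SE 0.07, limma adjusted p = 9.8e-05), turning to -0.10 on a common total, and higher than in soleus (1.67, SE 0.07, limma adjusted p = 2.1e-09). Hspa5 (BiP), the most abundant, held 129 ± 12.7 FPKM in brown fat, 164 ± 3.94 FPKM in white fat and 84.2 ± 3.72 FPKM in soleus, and its call in brown fat against soleus was lost with median-of-ratios scaling (0.19). Against soleus, 4 of 5 were higher and 1 lower in brown fat, and in white fat against soleus all 5 were higher, led by Pdia6 (1.80, SE 0.09, limma adjusted p = 7.2e-09).

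T cell co-signalling genes were low except for Cd274, which encodes PD-L1, the inhibitory ligand of PD-1. Cd274 stood at 20.8 ± 6.87 FPKM in brown fat, 3.04 ± 0.612 FPKM in white fat and 0.725 ± 0.374 FPKM in soleus (SD, n = 3 each). It was higher in brown than in white fat by 2.39 (SE 0.24, limma adjusted p = 4.6e-06) and than in soleus by 3.63 (SE 0.24, limma adjusted p = 1.1e-07). Cd86, a costimulatory ligand of antigen-presenting cells, had the opposite order in the fats, at 0.440 ± 0.0381 FPKM in brown fat, 2.80 ± 0.326 FPKM in white fat and 0.282 ± 0.0186 FPKM in soleus (-1.40 in brown against white fat, SE 0.08, limma adjusted p = 4.2e-08; 1.57 in white fat against soleus, SE 0.08, limma adjusted p = 7.9e-09). Of the 3 tested genes of this list, 1 was higher and 2 lower in brown against white fat, 1 was higher in brown fat against soleus, and 3 were higher in white fat against soleus. Cd80 and Cd40 did not pass the filter.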

How the data were processed

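RNA-seq was run on total RNA of brown fat, white fat and soleus, 3 libraries each. The authors deposited 1 matrix of FPKM values with 18401 rows named by RefSeq accessions; per the submitters' processing notes, TopHat 1.4.1 and Cufflinks 2.0.1 were used on the mouse build mm9. Strand and read length are not given in the sources used here. A gene counted in the interferon gamma list is not reported here by name. Rows were named from RefSeq (18302) and GENCODE (41) tables, 58 rows without a single symbol were left out (0.0339% to 0.36% of a library's FPKM), and rows of a symbol were summed, giving 17753 genes. Genes listed at 0 may be failed estimates.

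FPKM with a pseudocount of 1 was tested on the log2 scale in limma 3.58.1 (R 4.3.3), with a mean-variance trend, all 9 libraries in the fit which left 6 residual degrees of freedom. The 9913 genes tested reached 1 FPKM in 3 or more libraries, and p-values were adjusted over all of them by Benjamini-Hochberg. The script was tested on simulated data. Read totals are not given, so no counting intervals are given; relative depth was read from the steps between low values. Precision is limited by the 3 libraries per tissue. Named genes were the 15 partners, every H2- gene whose mean reached 10 FPKM in a tissue in full, those from 1 to 10 FPKM in their highest tissue, and from each other list the most abundant and the most changed. Members, lists and markers were chosen with earlier results of these data known, and ratios between genes after their values had been seen. Alternatives were other pseudocounts, filters, scalings, row handling, fits and left-out libraries. Promoters came from RefSeq on GRCm38.p6, transcript overlaps from GENCODE M21.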

Additional observations from a re-analysis of the deposited data

How the results depend on the processing

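Over the 63 differences of single members, 1086 alternative values kept their sign and their side of the threshold. With the sign kept, 17 no longer passed and 11 newly passed. A further 20 changed sign, whether or not the call changed as well. Where no value beside a change shows a cause, the cause was not tested. The number of members higher in brown than in white fat was 1 on a common total, 1 with upper quartile scaling and 1 without brown fat replicate 2 or white fat replicate 2. Leaving out a library in turn, it ran from 1 to 3, the number lower from 14 to 16, the number higher in brown fat than in soleus from 15 to 17, with 1 lower each time, while white fat had 20 higher and 0 lower than soleus by limma. The number lower in brown fat than in soleus was 2 with median-of-ratios and with upper quartile scaling, the added gene being H2-K2. The class II share ran from 25.1% to 30.9% in brown fat, 58.6% to 60.8% in white fat and 54.7% to 56.6% in soleus without each library; leaving H2-Q10 out, chosen after seeing the data, gave 36.4% in brown fat.

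Signs changed as follows. In brown against white fat on a common total, Tap2 was -0.35, Tapbpl -0.16 and Cd1d1 -0.58; Cd1d1 was also -0.08 with upper quartile scaling and ran from -0.09 to 0.08 without each library. Canx, at -0.01, was 0.06 with median-of-ratios scaling and ran from -0.10 to 0.07 without each library. In brown fat against soleus, Ciita was -0.11 with median-of-ratios and -0.10 with upper quartile scaling, and Ctss -0.28 and -0.25. Leaving out a library in turn gave -0.02 to 0.12 for Ciita and -0.06 to 0.16 for Ctss. In white fat against soleus, H2-K2 was -0.17 with median-of-ratios and -0.06 with upper quartile scaling, and Mr1 was -0.0028 with median-of-ratios scaling.

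Replicate numbers were shared by the tissues, but the 9 same-numbered pairs correlated at -0.22 to 0.0774 and 0 libraries correlated best with their own number in both other tissues. With a replicate block the calls were 3 higher and 15 lower between brown and white fat, 16 higher and 1 lower between brown fat and soleus, and 20 higher and 0 lower between white fat and soleus. Unknown read depth limits what can be said of members under 1 FPKM.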
